A study of Homo sapiens with 4 samples.

Results

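The regions described here are 2095 intergenic stretches of open chromatin that were called in human fibroblasts expressing ΔNp63α together with KLF4 and had no counterpart in the same cells expressing KLF4 alone. They came from ATAC-seq, in which a transposase inserts sequencing adapters into accessible DNA, and were chosen by the peak lists themselves: a −log10 q of 10 or more in the p63 list on chromosomes 1 to 22 and X, no overlapping CTR peak at any −log10 q, and a summit outside every GENCODE gene and more than 3 kb from every transcription start site (TSS). They made up 2095 of the 62233 regions of the p63 list at this threshold and 2095 of its 14212 intergenic regions, the background shares being 12% of all regions and 14.7% of intergenic regions without a CTR peak. Strength, absence from the CTR list and position were used to choose the regions and are given as description only. The sequence under the summits, the distances to CTR peaks beyond the overlap and the genes around the regions were not used.

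The cells were BJ, an established line of human dermal fibroblasts that carried a doxycycline-responsive transactivator (rtTA) and a retroviral inducible construct in polyclonal, selected lines. The CTR group expressed KLF4 alone and the p63 group expressed DNp63alpha and Klf4 from 1 transcript joined by a self-cleaving peptide, so KLF4 and 72 h of doxycycline at 1 µg/ml were common to both. Each group had 2 samples, each an independent induction of the same lines, but the deposited values are 1 peak list per group drawn from both samples. No value per replicate was at hand, no spread between replicates could be given, and no p-value was computed. Intervals in brackets are 95% Wilson intervals for counting error only.

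p63 is a transcription factor of the p53 family that maintains the basal layer of the epidermis and other stratified epithelia, and ΔNp63α is its main form there. It binds as a tetramer to a site made of decamers laid end to end, each with 3 purines, C, a pair of A or T, G and 3 pyrimidines, and much of its binding lies far from promoters in enhancers. KLF4 is a zinc finger factor of the differentiating epidermis, and together with p63 it converts fibroblasts towards keratinocyte-like cells.

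The sequences that carried the closest matches to the p63 site are shown first. A site was scored over 20 bp with the C and the G of both decamers fixed and mismatches counted at the other 16 positions, within 100 bp of the summit. The following 6 regions had a site with 0 mismatches and, among such regions, the highest −log10 q. Each line gives 40 bp of the plus strand of hg38 with the site in capitals.
TBX5 chr12:114269336-114269375: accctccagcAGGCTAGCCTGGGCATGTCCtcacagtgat
ACVR2A chr2:147382514-147382553: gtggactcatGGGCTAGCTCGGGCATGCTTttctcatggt
RYBP chr3:72555899-72555938: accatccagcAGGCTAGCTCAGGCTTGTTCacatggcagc
CDC42BPA chr1:227333715-227333754: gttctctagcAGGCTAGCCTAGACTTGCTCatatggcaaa
ETAA1 chr2:67451675-67451714: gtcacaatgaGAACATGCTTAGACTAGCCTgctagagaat
ADRA1D chr20:4451659-4451698: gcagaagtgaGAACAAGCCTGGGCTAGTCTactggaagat

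The genes are the nearest protein-coding genes and are given as a place name, not as targets. The region near TBX5, a limb and heart transcription factor, lay 134.5 kb from its TSS, had a −log10 q of 54.2 at 18.5-fold enrichment, and its site was centred 27.5 bp from the summit. The region near CDC42BPA, a kinase of the actin cytoskeleton, was the closest of the 6 to a protein-coding TSS at 15.2 kb, and the region near ACVR2A, an activin receptor, the farthest at 461.9 kb. Their −log10 q ranged from 32.5 to 54.2, their sites were centred 23.5 to 52.5 bp from the summit, and the nearest CTR peak was 1013 to 23339 bp away. The bases around the exact sites recurred between regions: of the 15 regions with 0 mismatches, 10 (66.7%, 41.7 to 84.8%) matched another of the 15 at 14 or more of the 20 bases flanking the site, in either orientation and without gaps. Among the 52 regions with 1 mismatch this held for 8 (15.4%, 8.01 to 27.5%). With at most 3 mismatches it held for 95 of 403 regions (23.6%, 19.7 to 27.95%). In gene-body regions chosen in the same way it held for 24.5% (21.4 to 27.9%) of 677 such sites. In intergenic regions that overlapped a CTR peak it held for 12.4% (8.35 to 18.1%) of 177. Sites were compared within each set, and a larger set offers more partners.

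Further sequences come from the strongest regions and from regions near epidermal genes, since these show how the site sits beside the summit. Each line gives 121 bp around the summit on the plus strand of hg38, with the best-matching site in capitals.
PLEKHG3, chr14:64680420-64680540: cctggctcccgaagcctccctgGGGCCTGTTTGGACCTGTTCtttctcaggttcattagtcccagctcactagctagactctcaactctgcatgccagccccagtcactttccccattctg
GPCPD1, chr20:5668573-5668693: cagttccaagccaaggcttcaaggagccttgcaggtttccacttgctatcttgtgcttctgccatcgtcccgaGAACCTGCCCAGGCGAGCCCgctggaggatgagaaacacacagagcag
TKT, chr3:53261804-53261924: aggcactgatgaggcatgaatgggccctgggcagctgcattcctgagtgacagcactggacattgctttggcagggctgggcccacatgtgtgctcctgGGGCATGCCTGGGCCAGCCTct
ITGA6, chr2:172403519-172403639: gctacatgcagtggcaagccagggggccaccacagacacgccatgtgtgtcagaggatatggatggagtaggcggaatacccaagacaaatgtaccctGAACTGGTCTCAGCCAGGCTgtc
CDH3, chr16:68605842-68605962: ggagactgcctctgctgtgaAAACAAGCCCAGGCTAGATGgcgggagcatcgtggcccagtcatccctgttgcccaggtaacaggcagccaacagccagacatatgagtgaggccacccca

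The sites near PLEKHG3, GPCPD1 and CDH3 had 2 mismatches and the site near TKT, the gene of transketolase, had 1. The best match near ITGA6 had 4 and thus fell outside the limit of 3 used below.

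The regions were weaker than the intergenic regions shared with CTR cells. Their median −log10 q was 15.4 (quartiles 12.2 and 21.1, range 10.01 to 80.5), against 23.9 in the 10038 intergenic regions of the p63 list that overlapped a CTR peak at the threshold. It was 15.3 in gene-body regions chosen in the same way. Intergenic regions with a CTR peak only below the threshold had 14.15, and intergenic CTR regions without a p63 peak had 11.7. The median fold enrichment over local background was 8.46 (3.14 to 21.9) and the median width 383 bp (148 to 1746 bp), against 10.2 and 527 bp. The pileup at the summit, solved from the fold enrichment and p of each peak, had a median of 22 reads (15 to 101), against 32 reads. In the CTR list the lowest pileup of any peak was 6 reads at a genome-wide background of 1.18, and in the p63 list it was 6 reads at 1.13. In the p63 list, 483 members (23.05%) were tested against this genome-wide background. The local background of the members ranged up to 22.7. The pileup that a CTR peak would have needed at each member is not known. A region called open only with p63 is thus one whose CTR coverage gave no peak, and coverage without a peak is not listed. In bulk cells, a larger share of cells with an open region and a more open region per cell cannot be told apart.

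The 3 members just inside the threshold each had a −log10 q of 10.01, and the 3 strongest otherwise matching regions below it had 9.996, 9.996 and 9.973. A further 6353 intergenic p63 peaks without a CTR peak lay below the threshold. At the TSS limit, the closest members had their summits 3008, 3016 and 3023 bp from a TSS, and the nearest regions outside it 2989, 2988 and 2981 bp. The members nearest to a CTR peak lay 3, 21 and 31 bp from its edge.

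A p63 site with at most 3 mismatches around the summit was present in 403 of the 2095 regions (19.2%, 17.6 to 21.0%). In equal windows shifted by 2 kb in both directions it was present in 41 of 4190 (0.979%, 0.722 to 1.33%), a ratio of 19.7. Over all regions of the p63 list the share was 3.78%. The share followed the presence of a CTR peak: it was 3.94% (3.19 to 4.87%) in the 2079 intergenic regions that overlapped a CTR peak only below the threshold, 1.76% (1.52 to 2.04%) in the 10038 shared intergenic regions and 0.188% (0.0333 to 1.059%) in the 531 intergenic CTR regions without a p63 peak, where it was 1 region. These intervals did not overlap that of the regions open only with p63. The 3608 gene-body regions chosen in the same way held the site in 18.8% (17.5 to 20.1%), with an interval that overlapped that of the intergenic regions. The site share was higher in the intergenic p63-only regions than in the shared ones on 23 of 23 chromosomes.

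The relation was graded in the quality of the site. Of the intergenic p63-list regions whose best site had 0 mismatches, 15 of 21 (71.4%, 50.04 to 86.2%) had no CTR peak, and with 1 mismatch 52 of 69 did (75.4%, 64.0 to 84.0%). The share was 69.5% with 2 mismatches, 54.9% with 3, 44.7% with 4 and 29.5% with 5. It was 7.40% (6.80 to 8.05%) among the 6727 regions in which no pair of decamer cores was found, against the 14.7% of all intergenic regions. Among the members, 498 regions (23.8%) had no pair of cores. The bar plot of intergenic regions by their best p63 site shows this decline.

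**Figure D1:**
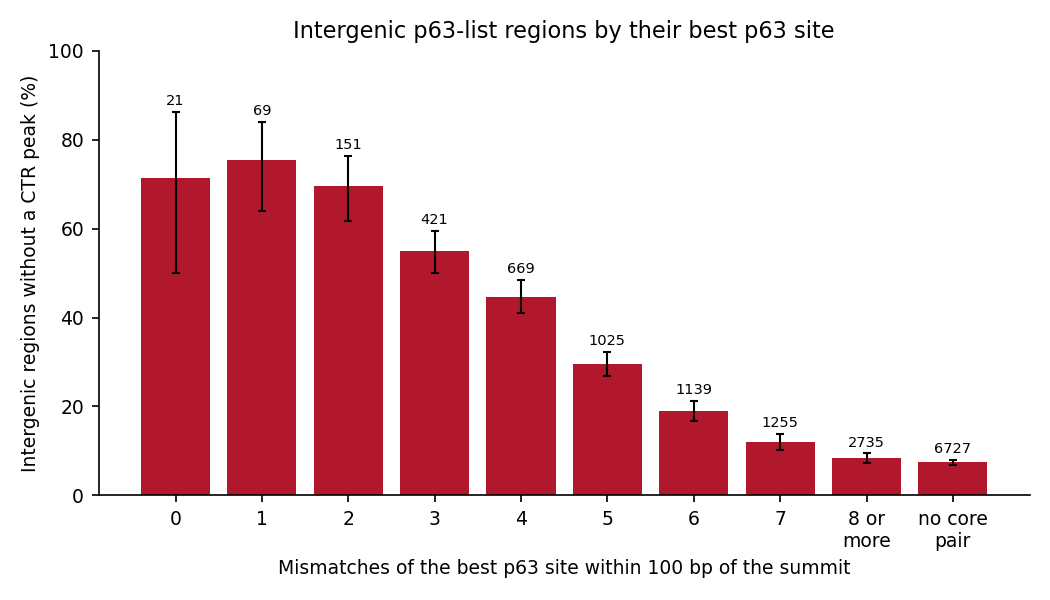
Share of intergenic p63-list regions without a CTR peak (y axis, percent) by the number of mismatches of the best p63 site within 100 bp of the summit (x axis). Bars are shares, error bars 95% Wilson intervals and numbers above the bars the intergenic regions in each class. The share falls from 71.4% at 0 mismatches to 7.40% where no pair of cores was found.

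The sites stood close to the summits, most densely at 20 to 40 bp from them. The density of sites was 1.53 per kb within 50 bp of the summit and 0.0676 per kb at 500 to 1000 bp, a ratio of 22.6. In shared intergenic regions the densities were 0.101 and 0.0550 per kb, a ratio of 1.83, and in the CTR-only regions 0.0188 and 0.0460 per kb. The centre of the best site lay at a median of 29.5 bp from the summit (quartiles 24.5 and 48.5 bp). Of the 403 sites, 203 (50.4%, 45.5 to 55.2%) were centred 20 to 40 bp away, or 5.08 sites per bp of distance counted on both sides, against 33 sites (1.65 per bp) at under 10 bp and 29 (1.45 per bp) at 10 to 20 bp. The sites fell on either side, 220 before and 183 after the summit. Of the sites printed above, those near PLEKHG3, GPCPD1 and CDH3 were centred 22.5 to 30.5 bp from the summit and the one near TKT 48.5 bp from it.

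**Figure D2:**
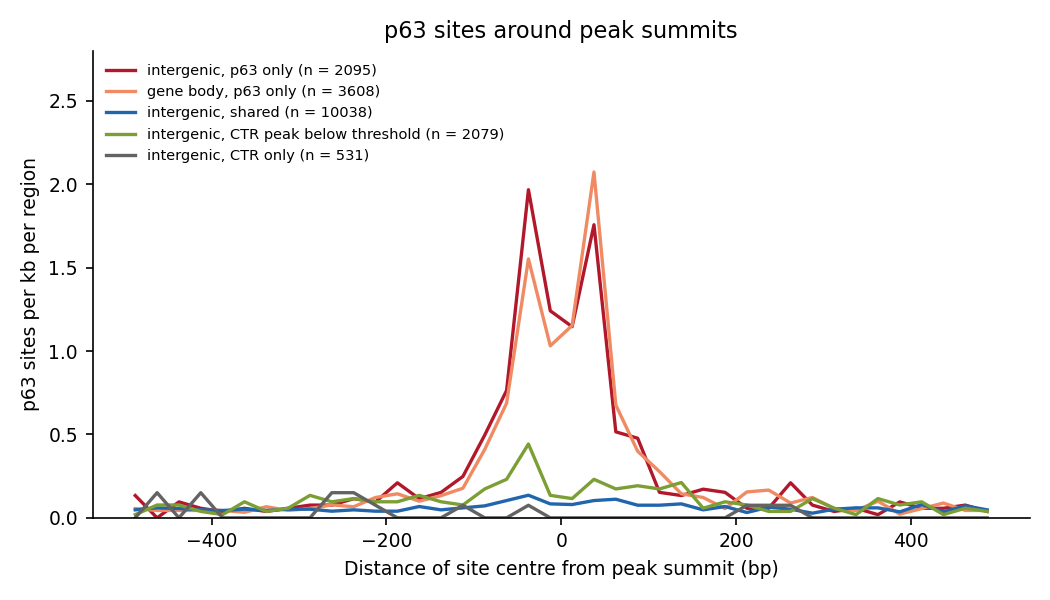
Number of p63 sites with at most 3 mismatches per kb and region (y axis) by distance of the site centre from the peak summit in bp (x axis, bins of 25 bp) for 5 sets of regions, 1 line each. Intergenic and gene-body p63-only regions show paired peaks on both sides of the summit, and the shared regions stay near 0.101 per kb within 50 bp.

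The share of regions with a site was larger among stronger regions. It was 11.96% (9.43 to 15.1%) among the 510 regions with a −log10 q of 10 to 12, 15.1% (12.2 to 18.5%) among 498 from 12 to 15, 23.4% (19.8 to 27.4%) among 479 from 15 to 20, 22.4% (18.7 to 26.7%) among 410 from 20 to 30 and 31.8% (25.7 to 38.6%) among 198 above. The weakest and the strongest class did not overlap in their intervals, and of the neighbouring classes only 12 to 15 and 15 to 20 did not. Within the same classes the shared intergenic regions stayed between 0.834% and 2.87%, so the difference between both sets was present at every strength. Regions with a site had a median −log10 q of 17.9 and a fold enrichment of 9.01, against 14.7 and 8.40 in the 1692 regions without one. GC content differed little, with medians of 48.8% and 49.3%.

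**Figure D3:**
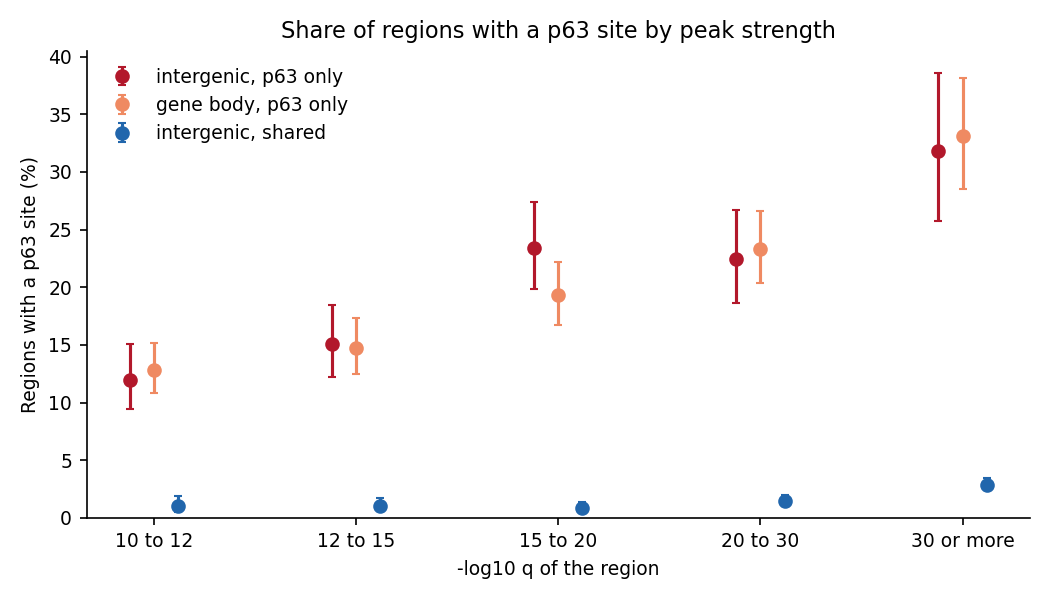
Share of regions with a p63 site within 100 bp of the summit (y axis, percent) in 5 classes of −log10 q (x axis) for intergenic p63-only, gene-body p63-only and shared intergenic regions. Points are shares and bars 95% Wilson intervals. The intergenic p63-only regions range from 11.96% to 31.8% and the shared regions stay at or below 2.87%.

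The distance to other landmarks made less difference to the site. The share with a site was 16.1% (11.3 to 22.4%) in the 168 regions within 1 kb of a CTR peak and 19.01% (15.3 to 23.4%) in the 363 regions more than 20 kb away. By distance to the nearest protein-coding TSS it was 18.2% (14.1 to 22.98%) in the 292 regions within 10 kb and 21.1% (13.2 to 32.0%) in the 71 regions beyond 500 kb. All of these intervals overlapped.

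The bases within the 403 sites were examined next. With the decamers of the palindromic site folded onto each other, the share of bases that matched the consensus was highest around the cores, at 89.0% for the third position and 88.8% for the fifth, and lowest at the centre where the decamers meet, at 77.1%. The low centre was not particular to the p63-only regions. In the 41 sites of the windows beside, the share was highest at the fifth position (91.5%) and lowest at the centre (68.3%). In the 177 sites of shared regions the centre was again lowest (78.8%). There the share was highest at the first position (88.7%), against 85.9% at the third and 83.3% at the fifth. Of the 806 cores, 248 (30.8%, 27.7 to 34.0%) read CATG, 308 (38.2%, 34.9 to 41.6%) read CAAG or its complement CTTG and 53 (6.58%, 5.06 to 8.50%) read CTAG. The remaining 197 cores (24.4%) had a mismatch in the A or T pair. CATG and CTAG read the same on both strands, while CAAG can occur in either orientation, so the counts are not on equal terms. The gene-body regions had close values for CATG (33.1%, 30.6 to 35.6%) and CAAG (36.0%, 33.5 to 38.6%). In the 41 sites of the windows beside the regions, CATG made up 46.3% (36.0 to 57.1%) of 82 cores.

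Decamers that touch were much more frequent than decamers apart. With the same limit of 3 mismatches over the pair, decamers without a gap were found in 19.2% of regions, while every spacing from 1 to 15 bp was found in 2.20% to 3.96% of them. The 83 regions (3.96%, 3.21 to 4.89%) with a spacing of 13 bp were the most among the separated pairs, against 0.740% of the windows beside. Many of these regions also held a touching pair: without them 47 remained at 13 bp, fewer than the 49 at 3 bp and the 48 at 15 bp, and the other spacings had 28 to 46. The share in the windows was between 0.358% and 1.24% for spacings up to 13 bp, and separated pairs, counted with the regions that also held a touching pair, were more frequent at the summits than beside them. A spacing of 14 bp was found in 2.12% (1.73 to 2.61%) of the windows and 3.39% (2.70 to 4.25%) of the summits, the smallest ratio among the spacings of 0 to 15 bp.

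Regions without a full site often held a single decamer. Among the 1692 regions without a site of at most 3 mismatches, 322 (19.03%, 17.2 to 20.97%) had a decamer with 0 mismatches, against 6.23% (5.77 to 6.72%) of the 9861 shared intergenic regions without a site and 4.72% (3.22 to 6.87%) of the 530 such CTR-only regions. Allowing 1 mismatch, 1079 of them (63.8%, 61.4 to 66.0%) had a decamer, against 39.5% (38.5 to 40.5%) of the shared regions. The windows beside all of the p63-only regions held an exact decamer in 5.97% and a decamer with at most 1 mismatch in 37.0%. Exact decamers were also more frequent in intergenic than in gene-body p63-only regions, at 25.1% (23.3 to 27.0%) and 21.2% (19.9 to 22.5%) of all regions. In the windows beside the gene-body regions the exact share was 5.32%, also below that beside the intergenic ones. With at most 1 mismatch the shares at the summits were 70.7% and 70.3%, with overlapping intervals.

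A search over all words of 6 letters within 50 bp of the summit used no motif at all and led to the same letters. Among words found in at least 50 regions, the highest ratio to the windows 2 kb away was that of GCATGC, found in 144 regions (6.87% against 1.93%, a ratio of 3.56). It was followed by ACAAGC (227 regions, 3.47), CAAGCC (288 regions, 3.45), CATGTC (291 regions, 3.42), ACATGC (321 regions, 3.36), CGTGTC (52 regions, 3.35) and CAAGTC (255 regions, 3.27), each counted with its reverse complement. All of these but CGTGTC contain CATG or CAAG, the cores most frequent in the sites. The eighth, GAGTCA (319 regions, 3.19), is part of the AP-1 motif. In the 1692 regions without a p63 site the order changed, with GAGTCA (281 regions, 3.49) and GACTCA (266 regions, 3.43) first and ACAAGC (155 regions, 3.23) and GCATGC (101 regions, 3.21) after them.

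Motifs of other factors were read in the same windows of 100 bp, on both strands and with overlaps allowed, and a match is a description of the letters alone. AP-1 (TGACTCA or TGAGTCA), the dimer of FOS and JUN proteins that marks enhancers of fibroblasts and keratinocytes alike, matched in 378 regions (18.0%, 16.5 to 19.8%), against 3.44% of the windows beside, 33.7% (32.8 to 34.7%) of shared intergenic regions and 25.4% of all regions of the p63 list. CTCF, an architectural factor of chromatin loops and insulators, matched with at most 1 mismatch in 115 regions (5.49%, 4.59 to 6.55%), against 0.549% of the windows beside, 11.98% (11.4 to 12.6%) of shared regions, 22.6% (19.2 to 26.3%) of CTR-only regions and 8.42% of all regions of the p63 list. Both motifs were thus more frequent than beside the regions and less frequent than in intergenic regions open in both cell populations. The following AP-1 match, from a region near SFN without a p63 site within the limit, is read on the plus strand of hg38 with the match in capitals.
SFN, chr1:26859152-26859198: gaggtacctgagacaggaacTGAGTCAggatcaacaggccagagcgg

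Within the p63-only regions, AP-1, CTCF and TEAD matches were less frequent where a p63 site was present, while those of KLF, RUNX and CEBP factors, described next, had overlapping intervals. AP-1 matched in 11.7% (8.89 to 15.2%) of the 403 regions with a p63 site and in 19.6% (17.7 to 21.5%) of the 1692 regions without one. CTCF matched in 3 regions with a p63 site (0.744%, 0.254 to 2.17%) and in 112 regions without one (6.62%, 5.53 to 7.91%). TEAD (ACATTCCA, ACATTCCT, GCATTCCA or GCATTCCT), the partner of YAP and TAZ, matched in 4.47% (2.84 to 6.95%) and 8.98% (7.71 to 10.4%). For AP-1, CTCF and TEAD the intervals of regions with and without a p63 site did not overlap. Over all members TEAD matched in 8.115%, close to the 8.23% of all regions of the p63 list. KLF matched in 2.73% (1.53 to 4.82%) of regions with a site and 3.66% (2.87 to 4.67%) without, RUNX in 7.94% (5.68 to 11.0%) and 8.92% (7.66 to 10.4%). CEBP had the other order, with 10.4% (7.80 to 13.8%) and 8.75% (7.49 to 10.2%).

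The motif of the KLF factors (GGGCGGGGC, GGGCGTGGC, GGGTGGGGC or GGGTGTGGC), which KLF4 recognises, matched in 73 regions (3.48%, 2.78 to 4.36%), against 0.955% (0.702 to 1.30%) of the windows beside and 3.81% (3.45 to 4.20%) of shared intergenic regions, whose interval overlapped. Over all regions of the p63 list the KLF share was higher, at 7.14%, and those of RUNX and CEBP, described next, were 9.665% and 8.989%. KLF4 was expressed in both groups. RUNX (TGTGGTC or TGTGGTT), bound by runt-domain factors, matched in 8.74% (7.60 to 10.02%), against 11.4% (10.8 to 12.1%) of shared regions and 6.49% beside. CEBP (TTGCNNAA), bound by C/EBP factors of differentiating cells, matched in 9.07% (7.91 to 10.4%) and in 10.6% (9.66 to 11.5%) beside, so it was no more frequent at the summits. Of all 2095 regions, 879 (42.0%, 39.9 to 44.1%) had neither a p63 site nor any of these 6 motifs. The same share was not counted in the comparison sets or the windows beside. Whether it is particular to these regions is therefore unknown.

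**Figure D4:**
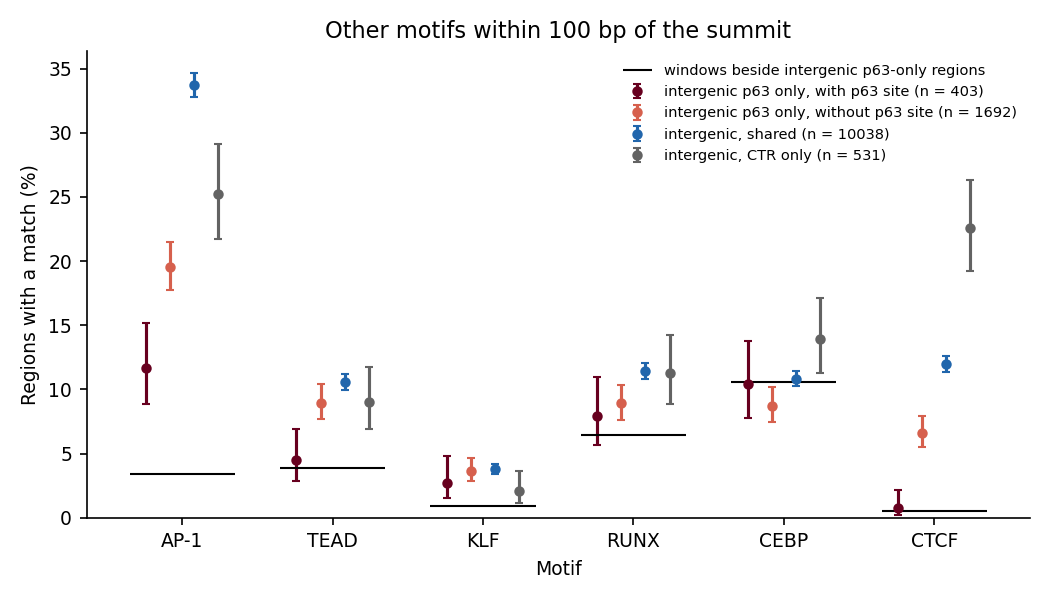
Share of regions with a match to each of 6 motifs within 100 bp of the summit (y axis, percent; motifs on the x axis) for intergenic p63-only regions with and without a p63 site, shared intergenic regions and intergenic CTR-only regions. Points are shares, bars 95% Wilson intervals and black lines the share in windows 2 kb beside the p63-only regions. AP-1 and CTCF matches are fewest in regions with a p63 site, at 11.7% and 0.744%.

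Some of the regions were alike in sequence beyond the site. In windows of 201 bp around the summits, 191 of 2095 (9.12%, 7.96 to 10.4%) aligned to another member over at least 100 bp at 80% identity or more, forming 25 families. This was less than in the windows 2 kb before and after, where 16.6% (15.03 to 18.2%) and 17.5% (15.95 to 19.2%) did. The largest family had 94 regions on 22 chromosomes, of which 23 had a p63 site. The next had 21 regions on 11 chromosomes with 0 p63 sites, and 18 of them shared a word of 12 letters. A family of 5 regions on 5 chromosomes, with a −log10 q of 24.3 to 34.2, had a p63 site in 4 of them, and the following pair is read on the plus strand of hg38 with the site in capitals. The site of the first has 2 mismatches and that of the second has 1.
TOP1, chr20:40978998-40979037: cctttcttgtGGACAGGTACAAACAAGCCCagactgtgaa
INSC, chr11:15096019-15096058: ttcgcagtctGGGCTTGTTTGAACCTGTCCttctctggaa

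The regions alike another member held a site in 23.04% (17.6 to 29.5%) and the 1904 others in 18.9% (17.2 to 20.7%), with overlapping intervals. No annotation of repeats was used, so the families carry no name, and the removal of reads that map to several places was not given in the sources used here.

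Overlap with a CTR peak was excluded by the choice of regions, and the distance beyond it varied widely. The nearest CTR peak of any −log10 q was at a median of 6675 bp (quartiles 2817 and 14738 bp), and the nearest at the threshold at 12747 bp. A CTR peak lay within 1 kb of 168 regions (8.02%, 6.93 to 9.26%), and 100 regions (4.77%) had none within 50 kb. The gene-body p63-only regions had a median of 6816 bp and 8.07% (7.22 to 8.999%) within 1 kb, and the intervals overlapped. Another intergenic p63-only region lay within 10 kb of 182 regions (8.69%, 7.56 to 9.97%), within 50 kb of 548 (26.2%, 24.3 to 28.1%) and within 200 kb of 1059 (50.5%, 48.4 to 52.7%).

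The nearest protein-coding TSS was at a median of 42.0 kb (quartiles 16.9 and 119.4 kb), and 71 regions (3.39%) had none within 500 kb. The shared intergenic regions had a median of 42.5 kb (quartiles 17 and 115 kb), values close to those of the p63-only regions. The closest TSS of any gene belonged to a protein-coding gene in 34.6% and to a long non-coding RNA in 32.0% of the regions. The cumulative plot of distances sets the CTR peaks, protein-coding TSSs and other p63-only regions side by side.

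**Figure D5:**
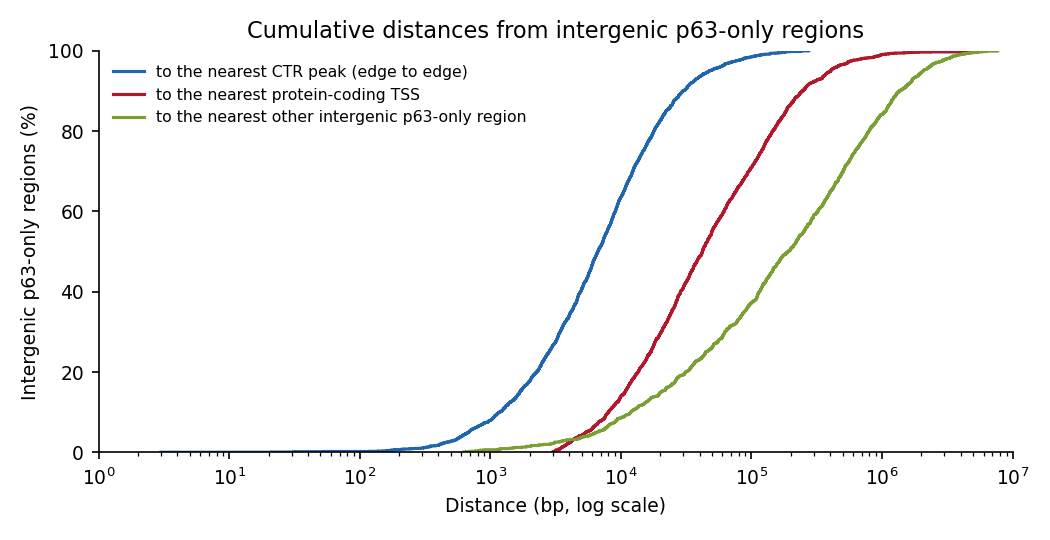
Cumulative share of the 2095 intergenic p63-only regions (y axis, percent) by distance in bp on a log scale (x axis) to the nearest CTR peak, the nearest protein-coding TSS and the nearest other intergenic p63-only region, 1 line each. The medians are 6675 bp, 42.0 kb and 191.3 kb.

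Members were found on all 23 chromosomes examined. They numbered 254 on chromosome 1 and 26 on chromosome 22. Per 10 Mb of sequence outside genes and more than 3 kb from a TSS there were 20.1 over the genome, 34.8 on chromosome 17, 34.7 on chromosome 1 and 6.37 on X, where intergenic p63-list regions of any kind were also few, at 310. As a share of the intergenic p63-list regions the members ranged from 11.5% (7.94 to 16.2%) on chromosome 22 to 18.2% (14.5 to 22.5%) on chromosome 16. The share on X was 16.1% (12.4 to 20.6%), so the low number there was not accompanied by a low share.

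The 8 strongest regions had a −log10 q of 62.96 to 80.5. The first, at chr11:109241988-109242496, lay 180 kb from C11orf87 and 12018 bp from the nearest CTR peak, with 20.4-fold enrichment, a −log10 q of 80.5 and a pileup of 81 reads over a local background of 3.02. Its best p63 site had 5 mismatches. The next, at chr3:108006248-108006693, lay 48.2 kb from CD47, which encodes a cell-surface signal against phagocytosis, with a −log10 q of 72.6 and a best site of 4 mismatches. The regions near PLEKHG3, GPCPD1 and TKT had −log10 q of 71.6, 69.8 and 66.1 and were the only 3 of the 8 with a site within the limit of 3 mismatches. The other three lay 33.6 kb from CTSG, which encodes cathepsin G, 364.9 kb from FOXD4L5 and 100.7 kb from MRTFB, a coactivator of serum response factor, and their best sites had 7, 4 and 8 mismatches. The region near FOXD4L5 had the highest fold enrichment of the members, 21.9, over a local background of 1.83.

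The genes around the regions were read through 4 lists written for epidermal and fibroblast biology, which were chosen with earlier results of these data known. Within 100 kb of a TSS, 17.1% of all 19962 protein-coding genes had a member. Of 30 genes of epidermal adhesion and structure 15 did (50%), of 20 epidermal transcription factors 6 (30%), of 20 targets of the p53 family 4 (20%) and of 30 fibroblast genes 7 (23.3%). Neighbouring genes share regions, so the genes are not independent and no interval is given: KRT14, KRT15, KRT16, KRT17 and KRT19 were counted through 1 region and KRT5 and KRT6A through another. The 21 epidermal genes of both lists were reached by 22 regions and fell into 16 groups without a common region. Any intergenic p63-list region lay within 100 kb of 58.5% of all protein-coding genes, and of 23 of the 30 adhesion and structure genes, 14 of the 20 transcription factors, 10 of the 20 p53 family targets and 26 of the 30 fibroblast genes.

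Among structural genes, the strongest of the 22 regions lay 23.8 kb from ITGA6, the α6 integrin of hemidesmosomes, at chr2:172403356-172403764, with 13.5-fold enrichment and a −log10 q of 48.7. A region 30.3 kb from CDH3, the P-cadherin of basal keratinocytes, had a −log10 q of 40.4, a fold enrichment of 16.7 and the best site of this group with 2 mismatches. It was the only intergenic p63-list region within 100 kb of CDH3. A region 3.92 kb from SFN, which encodes 14-3-3σ, had a −log10 q of 29.7 and an AP-1 match.

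The keratin genes, which encode the intermediate filaments of the epidermis, were reached by 3 regions. The region 7.84 kb from KRT5 and 15.1 kb from KRT6A, at chr12:52508101-52508554, had a −log10 q of 23.7 and a best site of 11 mismatches. A region 29.4 kb from KRT1 had a −log10 q of 18.7 and a best site of 9 mismatches. The region shared by the type I keratin genes lay 9.79 kb from KRT19 and 45.4 kb from KRT14 with a −log10 q of 14.4. None of these 3 regions had a p63 site within the limit. PERP, a p63 target of desmosomes, had 3 members between 72.3 and 93.3 kb away with −log10 q of 12.96 to 17.6, out of 4 intergenic p63-list regions in that reach. PKP1, a desmosomal plakophilin, had 1 at 27.0 kb with a −log10 q of 15.7, and FERMT1, which encodes kindlin-1, had 1 at 29.6 kb with a −log10 q of 11.8.

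Of the 22 regions, 2 had a p63 site within the limit, and the region near CDH3 was 1 of them. Over all members the share was 19.2% (403 of 2095), and the difference was not tested. Among the transcription factors, DLX3, a homeobox factor of the outer epidermis, had 3 regions at 12.7, 23.9 and 50.4 kb, the first with a −log10 q of 24.96. EHF, an epithelial ETS factor, had 2 at 11.0 and 37.8 kb with −log10 q of 20.2 and 13.3. GRHL1 (99.8 kb), TFAP2C (82.1 kb) and KLF4 (98.6 kb) were reached near the edge of the 100 kb window, with −log10 q of 36.1, 11.6 and 24.1. TSS distance does not tell which gene a region acts on, and other genes often lay closer: the nearest protein-coding gene was CYS1 for the GRHL1 region, RAD23B for the KLF4 region and TNNT2 for the PKP1 region.

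Counting each region for its nearest protein-coding gene, 1616 genes were nearest to a member, 1290 of them to 1 member and 13 to 5 or more. CDH5 (chromosome 16, 66366690 to 66404784), the endothelial cadherin, was nearest to 7 regions at 6.76 to 482.4 kb, and IGFBP3 (chromosome 7, 45912245 to 45921874), a binding protein of insulin-like growth factors, to 7 regions at 210.4 to 647.2 kb. SOX9 (chromosome 17, 72121020 to 72126416), a transcription factor in a long stretch without genes, was nearest to 6 regions at 119.4 to 590.6 kb. MAN2A1 and TPTE had 6 each, and ACVR2A, CD83, FAT2, FOXD4L6 and GJD2 had 5 each. A p63 site was present in 1 region each for IGFBP3, MAN2A1, TPTE, ACVR2A, FOXD4L6 and GJD2. For CDH5, SOX9, CD83 and FAT2 it was present in 0. Over all members the share with a site was 19.2%, and the difference was not tested. The regions counted for TPTE lay 4500 to 5481 kb away on chromosome 21.

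The densest windows of 200 kb held 5 or 6 members. On chromosome 1, 6 members spread over 199.4 kb from 116687310 between CD2, IGSF3 and PTGFRN, with −log10 q of 10.7 to 47.9 and 1 p63 site. On chromosome 5, 6 members stood within 24.7 kb from 151613293, near FAT2 and SPARC, with −log10 q of 12.6 to 28.0 and 0 p63 sites, in a window with 19 p63-list regions and 19 CTR peaks. FAT2 is an atypical cadherin of epithelia and SPARC a matrix protein of fibroblasts. On chromosome 10, 5 members spread over 143.2 kb from 101078533 near TLX1, LBX1 and KAZALD1, and 2 of them had a p63 site.

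The labelled cell type was checked on its marker genes. A peak at the threshold lay within 1 kb of a TSS of 8 of 8 fibroblast genes in both lists, of 2 of 6 keratinocyte genes (KRT15 and CDH1) in both lists, of 0 of 2 endothelial genes and of 1 of 2 immune genes (PTPRC) in both lists. The p63 list held 112294 peaks and the CTR list 103700, with a median pileup of 33 reads in both at the threshold. The lists give no read totals, so the depth of the libraries is unknown.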

How the data were processed

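Reads were mapped to hg38 by the authors with Bowtie2 2.3.4.3, and MACS2 was run over the replicates of each group. The version and options of MACS2, duplicate removal and any shift of reads for the transposase were not given in the sources used here. In the deposited lists each peak has a fold enrichment (a ratio of pileup to local background), a −log10 q, a −log10 p and a summit offset in bp, none scaled between lists. The alignment named in the peak names joins 2 inputs, which may be replicates or mates. The threshold of −log10 q of 10 was that of the study.

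Positions are 1-based on GRCh38, with GENCODE release 44 for genes and TSSs. Sequences were read with pysam 0.24.0 and windows aligned with BLAST 2.17.0. The pileup was solved from fold enrichment and p, assuming a pseudocount of 1 and a Poisson p, and gave back the −log10 p within 0.01 for all 2095 regions. Scans, distances and pileups were tested on simulated data. The named regions were the 8 of highest −log10 q, the 6 best sites, up to 15 near epidermal genes by −log10 q, 3 dense windows, the 3 on each side of a threshold, and the top 10 nearest genes. The FERMT1 and TFAP2C regions, the weaker regions of PERP, EHF and DLX3, the members nearest to a CTR peak, the classes of −log10 q and the printed family pair were chosen after their values were seen. Members, lists and motifs were chosen with earlier results of these data known. Alternative thresholds, windows and mismatch limits are given in the closing section. Some regions that the naming rule selects are not reported here.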

Additional observations from a re-analysis of the deposited data

How the results depend on the processing

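No paired analysis was possible because the authors deposited 1 peak list per group, drawn from both replicates, and for the same reason no replicate was left out. The share of soft-masked repeats was not run, since the reference used here marks none. Of 61 alternative values, 27 stayed within the counting interval of the main value (for counts, within 1.5 times) and 34 moved. The tally is no measure of robustness. Merging touching or overlapping p63 peaks changed none of the values, and a wider window or a looser mismatch limit can only raise a share. The cause was not tested where a value moved. With a −log10 q of 20 or more, 608 regions remained, with a site in 25.5%, a density ratio of 28.3, a CTR peak within 1 kb in 6.25%, another member within 50 kb in 9.38% and a CTCF match in 2.796%; members then reached 6 genes of epidermal adhesion and structure and 1 fibroblast gene, against 5.68% of all genes. With protein-coding genes alone as annotation, there were 3351 regions, 30.5% had another member within 50 kb and the median TSS distance was 49.6 kb. More than 10 kb from every TSS that median was 59.4 kb, and with TSSs of all genes 17.7 kb. With overlapping CTR peaks below the threshold allowed, there were 4174 regions, with a site in 11.6%, a CTR peak within 1 kb in 53.8% and another member within 50 kb in 41.04%.

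The site share was 8.21% with at most 2 mismatches, 33.5% with 4, 12.8% within 50 bp, 23.5% anywhere in the region and 70.7% for 1 decamer with at most 1 mismatch. The shared intergenic regions were lower in each setting in which they were also scanned, with 0.438% at 2 mismatches, 4.29% at 4, 0.767% within 50 bp and 40.6% for 1 decamer. The density ratio was 66.4 with at most 2 mismatches and 12.9 with 4. A CTR peak lay within 5 kb of 40.6% of the regions and another member within 200 kb of 50.5%. Within 50 bp, the motif shares were 10.6% for AP-1, 4.20% for TEAD, 2.05% for KLF, 4.73% for RUNX, 4.92% for CEBP and 4.44% for CTCF. Within 50 kb, 3 epidermal transcription factors and 4 fibroblast genes had a member, against 9.57% of all genes.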
